A study of Musca domestica with 10 samples.

Results

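The genes described here were on at the cellular blastoderm of the house fly, Musca domestica, after being near silent at the syncytial blastoderm, and were reduced by dorsal closure. They were chosen by their measured levels, in CPM (a gene's read count scaled to 1000000 gene reads in its library). A gene was taken when both syncytial blastoderm libraries were below 1 CPM, both cellular blastoderm libraries were at 10 CPM or more, and at least 1 dorsal closure library was below 10 CPM. Genes were left out when every syncytial blastoderm and germ band extension library was below 0.1 of the lower cellular blastoderm value. The rule found 36 of the 15803 genes in the count files. It did not use the 2 gastrula libraries, so no limit was set on the gastrula values themselves. The stages on either side of gastrula were used, so the gastrula values are not fully independent of the choice.

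The study measured mRNA in whole, untreated embryos at 5 stages, with 2 biological replicates of 100 embryos for each, 10 libraries in all. No genotype or strain is given in the labels, and each library pools all tissues of its embryos. The stages were the syncytial blastoderm, in which nuclei share a common cytoplasm, and the cellular blastoderm, in which membranes have closed around them. They went on with the gastrula, in which the germ layers form, germ band extension, in which the trunk elongates, and dorsal closure, in which the epidermis seals the back of the embryo. Gene reads numbered 16288442 in syncytial blastoderm replicate 1 and from 42479342 to 83604709 in the other 9 libraries, so that 3 counts stood for 0.184 CPM in the former and 0.0359 to 0.0706 CPM in the latter.

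An insect embryo starts on RNA that its mother placed in the egg, and its own genome is switched on around the time the blastoderm forms cells. In Drosophila melanogaster, many of the first genes that the embryo transcribes lay out the body axes or build the cell membranes, and a share of them is shut off again once that work is done. The count files name the house fly genes only by MDOA identifiers, and the species' reference gene table held 0 of the 15803 identifiers. The 36 genes are therefore described by identifier and by their course, with no role assigned, and the labelled tissue was not checked against marker genes.

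The levels that chose the genes are given as a description. At syncytial blastoderm the 36 genes had a median of 0.184 and 0.0471 CPM (replicate 1 and 2, in this order throughout), against 53.2 and 34.9 CPM at cellular blastoderm. At cellular blastoderm the lowest members stood at 13.8 and 11.2 CPM and the highest at 1022 and 459.5 CPM. In the 2 syncytial libraries, 14 and 20 of the 36 genes had fewer than 3 counts, so most starting levels rest on a handful of reads. At dorsal closure the median was 1.79 and 2.08 CPM, and 23 of the 36 genes were still higher in both dorsal closure libraries than in either syncytial one. The rule used both of these stages, and the same count was not made over all genes.

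Summed over the 36 genes, their share of a library's gene reads was 0.00101% and 0.000393% in syncytial blastoderm, then 0.336% and 0.166% in cellular blastoderm. It reached 0.476% and 0.375% in gastrula and 0.505% and 0.247% in germ band extension, before 0.0142% and 0.0255% in dorsal closure. Much of that came from a single gene. MDOA010623 held 30.4% and 27.6% of the group's reads at cellular blastoderm and 42.2% and 42.8% at gastrula. In whole embryos, fewer cells that express a gene and less RNA in each such cell cannot be told apart.

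**Figure D1:**
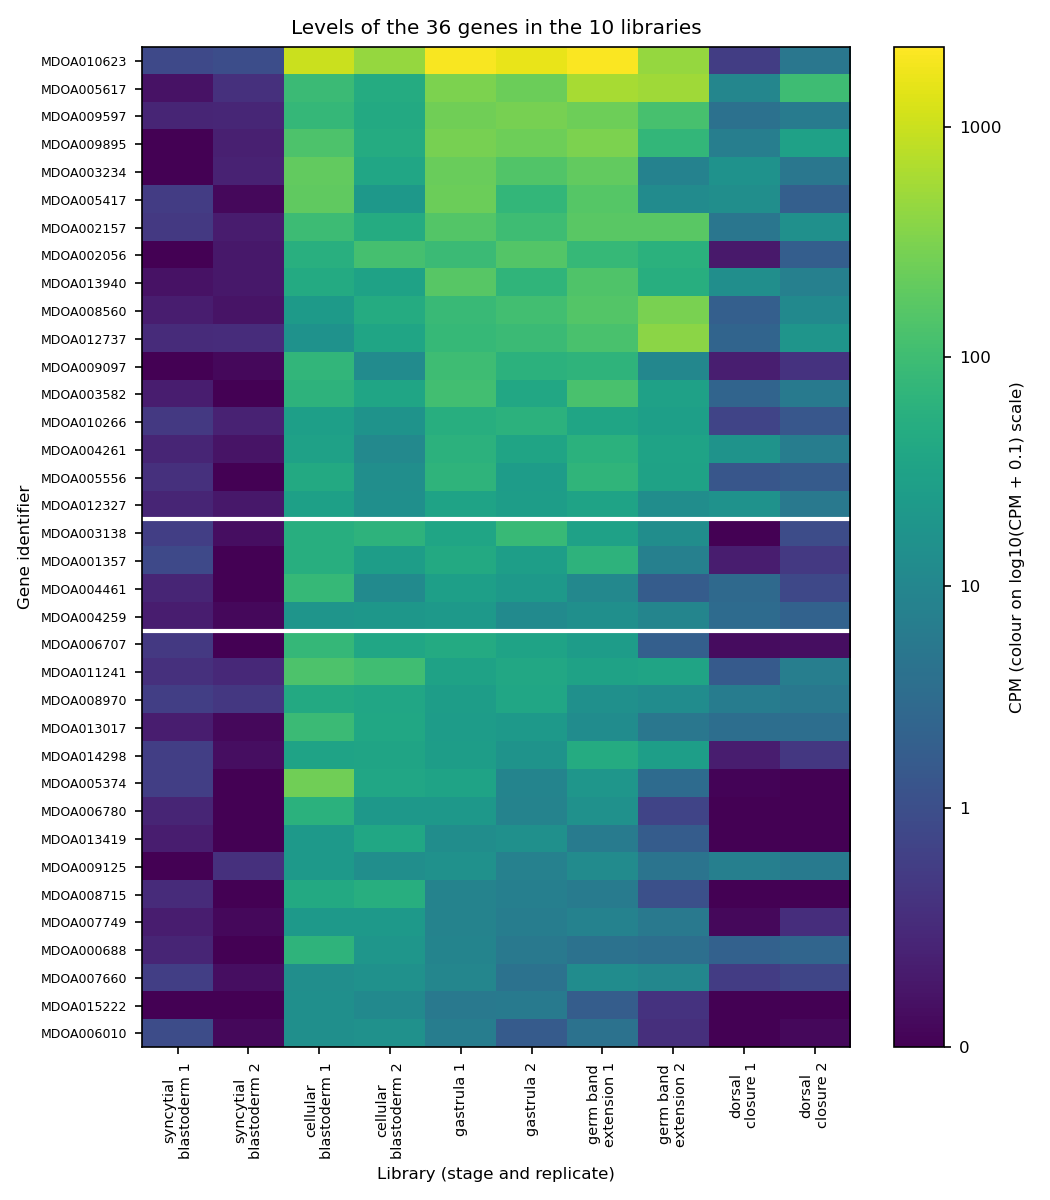
Level of each of the 36 genes (lines) in each of the 10 libraries (columns), with colour on a log10(CPM + 0.1) scale. The top block holds the 17 genes that were higher at gastrula than at cellular blastoderm in both replicate series, the middle block the 4 whose series differed and the bottom block the 15 that were lower in both; MDOA010623, in the first line, is the most abundant.

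The values at the edges of the rule were as follows. The member nearest the syncytial limit was MDOA010623 at 0.965 CPM in its higher library, and the gene just outside was MDOA000299 at 1.1 CPM. At the cellular blastoderm limit MDOA004261 stood inside at 11.2 CPM in its lower library and MDOA010102 outside at 9.94 CPM. The limit at dorsal closure ran between MDOA005617 at 9.69 CPM and MDOA012486 at 10.9 CPM, each in its lower library. For the share of the cellular blastoderm level kept in the other libraries, MDOA008715 was inside at 0.148 and MDOA008087 outside at 0.0759. The syncytial, cellular blastoderm and dorsal closure limits thus had genes close by on either side, and the gap was wider at the share limit. All 36 members passed the share limit through germ band extension and none through syncytial blastoderm, with both germ band extension libraries above it in 29 and replicate 1 alone in 7.

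At gastrula, the stage that the rule left out, most of the genes were still on. In both gastrula libraries 27 of the 36 genes stood at 10 CPM or more, and 6 were below 10 CPM in both. The median was 39.5 and 34.1 CPM, while single genes went opposite ways. From cellular blastoderm to gastrula, 17 genes were higher in both replicate series (the libraries with the same replicate number), 15 were lower in both and 4 differed between the series. Of all 11286 genes tested, 31.5% were higher in both series and 34.7% lower in both, against 47.2% and 41.7% of the 36. The 2 libraries of each stage did not overlap in 10 members that were higher at gastrula and 13 that were lower, beside 18.9% and 21.2% of all genes.

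Among the genes that stood higher at gastrula, MDOA009597 had the largest fitted change. From 79.9 and 44.0 CPM in the cellular blastoderm libraries it went to 254 and 284 CPM in those of gastrula, 241 and 121 CPM in germ band extension, and 4.09 and 6.37 CPM in dorsal closure. Both gastrula libraries were more than 3 times as high as the higher cellular blastoderm library, and they lay close together. Its log2 fold change was 2.3 ± 0.52 (SE), with an edgeR adjusted p of 0.1, and 2.32 ± 0.45 with an adjusted p of 0.019 once the replicate number entered the edgeR fit as a block.

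MDOA005617 was next, with 91.3 and 47.1 CPM in cellular blastoderm, 314 and 240 CPM in gastrula, and 605 and 540 CPM in germ band extension. It went on to higher values at each of these stages in both series, and then parted at dorsal closure, at 9.69 and 98.9 CPM. Its log2 fold change from cellular blastoderm to gastrula was 2.16 ± 0.99 (SE, edgeR adjusted p = 0.42, and 0.21 with the block). Leaving out one or the other dorsal closure library in the block fit gave an edgeR adjusted p of 0.017 or 0.021 (2.18 ± 0.45 and 2.09 ± 0.46), so the call turned on libraries of a stage outside the comparison.

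At the other end, MDOA005374 was lower at gastrula. It stood at 259 and 38.1 CPM in cellular blastoderm, 32.8 and 9.11 CPM in gastrula, 19.2 and 3.17 CPM in germ band extension, and 0.0123 and 0 CPM in dorsal closure, where it had 1 read and none. Replicate 1 was the higher library at every stage, and the cellular blastoderm pair was far apart, while the ratio of gastrula to cellular blastoderm was 0.127 and 0.239 in the 2 series. The log2 fold change was -2.71 ± 1.42 (SE) with an edgeR adjusted p of 0.51, and -2.3 ± 0.58 with an adjusted p of 0.047 with the block. Without the block it ranged from -0.8, without cellular blastoderm replicate 1, to -3.71, without gastrula replicate 1.

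MDOA008715 showed a like course with replicates closer together, with 43.0 and 52.4 CPM in cellular blastoderm, 8.86 and 7.57 CPM in gastrula, 6.36 and 1.04 CPM in germ band extension and no reads in dorsal closure. The stages did not overlap up to germ band extension. Its log2 fold change to gastrula was -2.38 ± 1.23 (SE, edgeR adjusted p = 0.51, and 0.18 with the block).

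Over the 36 genes, edgeR's quasi-likelihood test called 0 higher and 0 lower at gastrula than at cellular blastoderm at an adjusted p under 0.05, where it also called 0% of the 11286 genes tested. At an unadjusted p under 0.05 it found 3 of the 36 higher and 0 lower, against 7.27% and 5.34% of all genes. No member was called by limma-voom, nor any other gene (0%), and DESeq2 gave 2 calls of a higher level and 0 of a lower one, beside 5.38% and 3.29% of its genes. With the replicate block, edgeR called 2 higher (5.56%) and 1 lower (2.78%), beside 3.87% and 2.81% of all genes. At an unadjusted p under 0.05 this fit had 8 members higher and 4 lower, beside 11.2% and 9.37% of all genes. DESeq2 with the block called 5 higher and 1 lower, beside 9.24% and 7.08% of its genes. The edgeR calls were MDOA009597 and MDOA005374, given above, and MDOA013940, which was named because it was called. MDOA013940 had 45.3 and 32.0 CPM in cellular blastoderm, 169 and 68.8 CPM in gastrula, 143 and 52.5 CPM in germ band extension, and 13.9 and 7.9 CPM in dorsal closure, with an edgeR log2 fold change of 1.67 ± 0.37 and an adjusted p of 0.031 with the block (1.74 ± 0.59 and 0.25 without it, and 1.13 without the block and gastrula replicate 1). The median log2 fold change of the 36 was 0.126 without the block, and -0.0601 when libraries were scaled to total counts. Leaving out 1 library moved it from -0.0881, without gastrula replicate 1, to 0.393, without cellular blastoderm replicate 1. In the block fit of all 10 libraries the shares called at an adjusted p under 0.05 lay near those of all genes in both directions, and the cellular blastoderm side of the comparison was also used to choose the genes. With the block, 0 of the 36 were called when any 1 of the 4 libraries of these 2 stages was left out, where 0.771% to 1.75% of all genes were called higher and 0.116% to 0.921% lower. Without dorsal closure replicate 1, 6 were called higher (16.7%, against 4.81% of all genes) and 2 lower (5.56%, against 4.27%), and without replicate 2, 5 higher (13.9%, against 4.23%) and 2 lower (5.56%, against 4.89%).

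**Figure D2:**
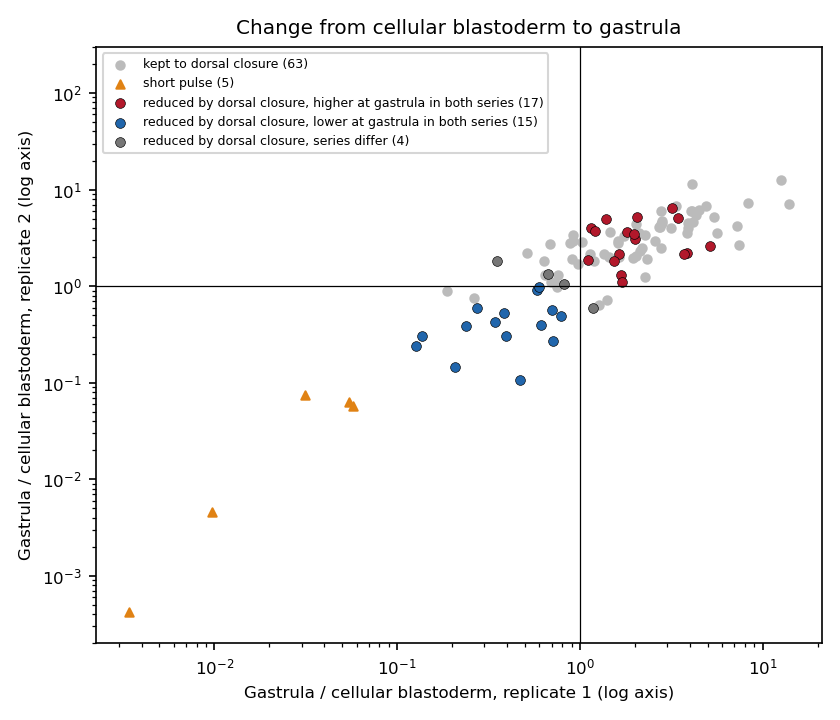
Gastrula level divided by cellular blastoderm level for each gene, replicate 1 across and replicate 2 up, both on log axes, for the 36 genes and for the other genes that met the same syncytial and cellular blastoderm limits. Red points (17) lie above 1 in both series and blue points (15) below 1 in both; of the 63 genes kept to dorsal closure, in grey, 46 lie above 1 in both, and all 5 short-pulse genes, in orange, lie below.

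The limits of the first 2 stages were met by 104 genes, the 36 among them. In 63 of the others both dorsal closure libraries stayed at 10 CPM or more (kept to dorsal closure), and in 5 the germ band extension libraries were below the share limit (a short pulse). At cellular blastoderm the 3 groups overlapped, with medians of 53.2 and 34.9 CPM for the 36 genes, 54.0 and 28.0 CPM for the kept genes and 102 and 48.8 CPM for the pulse genes. At gastrula the medians were 39.5 and 34.1, 106 and 88.6, and 4.68 and 2.45 CPM, and the ranges of the groups overlapped there too. Among the kept genes, 46 of 63 were higher at gastrula in both series and 3 lower, and all 5 pulse genes were lower in both series. In the edgeR test with the block, 25 of the 63 kept genes were called higher and 0 lower, and 4 of the 5 pulse genes were called lower. Over all genes tested, that fit called 3.87% higher and 2.81% lower. Levels at later stages chose the kept and pulse genes and bear on their gastrula levels. Their counts and calls are therefore a description. The median of the 36 genes at gastrula lay between those of the other groups, and the differences between the groups were not tested.

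The genes that stood higher at gastrula and those that stood lower also differed in what followed. This grouping was made after the values were seen, and is a description without a test. The grouping itself fixes the direction at gastrula, and the rule used the germ band extension and dorsal closure values to choose the genes. The 17 genes of the first kind had medians of 64.1 and 36.7 CPM in cellular blastoderm, 109 and 91.8 CPM in gastrula, 143 and 52.5 CPM in germ band extension, and 4.09 and 5.81 CPM in dorsal closure. The 15 of the second kind had medians of 43.0 and 34.4 CPM, 15.5 and 8.84 CPM, 12.7 and 3.79 CPM, and 0.037 and 0.27 CPM at the same stages. The medians of the first kind thus stayed high until germ band extension, and those of the second kind were lower at each stage after cellular blastoderm.

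At dorsal closure, 10 of the 15 genes that were lower at gastrula stood below 1 CPM in both libraries, against 1 of the 17 that were higher and 2 of the 4 whose series differed. All 10 genes that kept 10 CPM or more in 1 dorsal closure library belonged to the 17. Since the rule used the dorsal closure values, these counts are a description. In each dorsal closure library 7 of the 15 genes had fewer than 3 counts, and none of the 17 did. With values under 3 counts set to 3, the median ratio of gastrula to dorsal closure was 40.1 and 9.46 for the 17 genes and 184 and 25.6 for the 15, and the ranges overlapped, from 1.98 to 3973 and from 2.08 to 1235 in series 1.

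**Figure D3:**
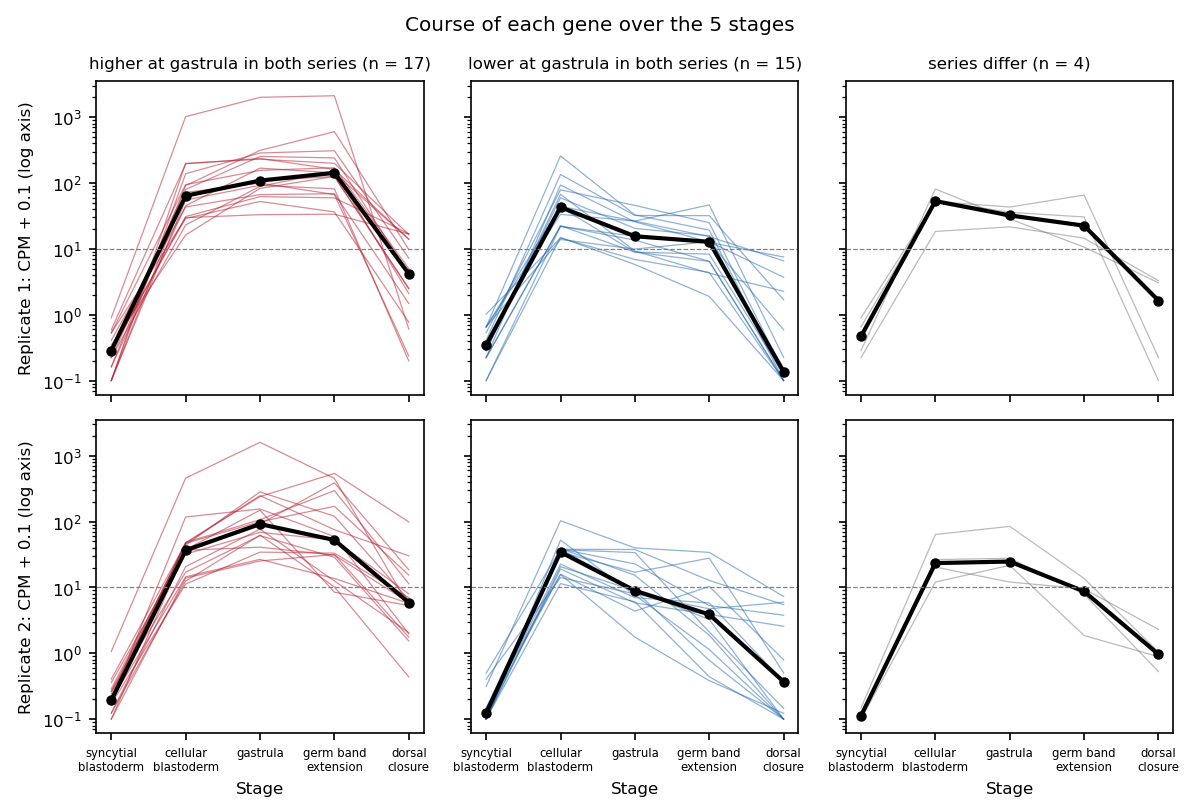
Level of each gene over the 5 stages (thin lines; CPM + 0.1 on a log axis), with replicate 1 above and replicate 2 below, split by the direction from cellular blastoderm to gastrula; black lines are medians and the dashed line marks 10 CPM. The left panels stay high through germ band extension, with medians of 143 and 52.5 CPM there, and the middle panels are lower at each stage after cellular blastoderm, with 12.7 and 3.79 CPM.

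Members also differed in the stage of their highest level, which was cellular blastoderm for 16 genes in each series, gastrula for 9 in series 1 and 15 in series 2, and germ band extension for 11 and 5. Both series gave the same stage for 27 of the 36 genes, with cellular blastoderm as the highest in 14, gastrula in 8 and germ band extension in 5. The largest ratio of a stage to the next one was that from germ band extension to dorsal closure in 34 genes in series 1 and in 26 in series 2. In series 2 it was that from gastrula to germ band extension in 7 genes, against 0 in series 1. Only in MDOA000688, named for this after its values were seen, was it that from cellular blastoderm to gastrula in both series, from 67.6 and 19.0 CPM to 9.2 and 5.74 CPM. The rule asks for low dorsal closure values and leaves out genes that were low at germ band extension. The counts for the step to dorsal closure are thus partly fixed by the choice, and they were not made over all genes.

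From gastrula to germ band extension more of the genes were lower than higher. In both series 24 of the 36 were lower (66.7%) and 7 were higher (19.4%), while over all tested genes 22.9% were lower in both series and 35.9% higher. The 2 libraries of each stage did not overlap in 12 genes that were lower (33.3%, against 8.57% of all genes) and in 6 that were higher (16.7%, against 19.2%). The rule used germ band extension to leave out genes that were low there and dorsal closure to require low values, and it did not use this comparison. No p-value is given to these counts.

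Of the genes that were lower, MDOA015222 had the largest fitted change. It stood at 14.8 and 11.3 CPM in cellular blastoderm, 5.7 and 5.96 CPM in gastrula and 1.79 and 0.341 CPM in germ band extension, with 0 reads in both syncytial and both dorsal closure libraries. Its log2 fold change from gastrula to germ band extension was -2.67 ± 1.09 (SE, edgeR adjusted p = 0.95, and 0.43 with the block). MDOA004461 had 81.2 and 11.98 CPM in cellular blastoderm, 28.5 and 21.7 CPM in gastrula, 10.6 and 1.76 CPM in germ band extension, and 2.96 and 0.788 CPM in dorsal closure. Both were lower in each germ band extension library than in either gastrula library, with replicate 2 lower than replicate 1. The log2 fold change of MDOA004461 was -2.24 ± 1.3 (edgeR adjusted p = 1.0, and 0.32 with the block; DESeq2 with the block gave 0.023), and it was -1.44 without germ band extension replicate 2 and -3.62 without replicate 1.

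Of the genes that were higher, MDOA012737 went from 83.0 and 91.8 CPM at gastrula to 126 and 389 CPM at germ band extension, after 16.2 and 35.4 CPM at cellular blastoderm, and stood at 2.38 and 18.5 CPM at dorsal closure. MDOA008560 had a like course, at 23.0 and 48.2, 89.2 and 107, 152 and 296, and 2.0 and 11.3 CPM at the 4 stages from cellular blastoderm on. In both genes replicate 2 was the higher library at each of these stages, which up to germ band extension was the opposite of most of the group. Their log2 fold changes to germ band extension were 1.48 ± 0.96 and 1.09 ± 0.82 (SE), each with an edgeR adjusted p of 1.0 (0.56 and 0.57 with the block). These fold changes became 0.32 and 0.42 when germ band extension replicate 2 was left out of the fit without the block, and 2.34 and 1.78 when replicate 1 was.

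A dip followed by a return was seen in 2 of the 36 genes, a count that was not made over all genes. MDOA007660 and MDOA014298, named after their values were seen, were the only members that were lower at gastrula and higher again at germ band extension in both series. MDOA007660 stood at 13.8 and 15.8 CPM in cellular blastoderm, 9.84 and 4.28 CPM in gastrula and 12.8 and 10.3 CPM in germ band extension. MDOA014298 stood at 33.4 and 34.4, 26.4 and 16.9, and 46.5 and 27.8 CPM. In both genes the gastrula libraries lay below those of the stages on either side without overlap. The fitted log2 fold changes to gastrula were -0.95 ± 0.97 and -0.51 ± 0.88 (SE, edgeR adjusted p = 0.85 and 0.96), and those from gastrula to germ band extension 0.61 ± 0.96 and 0.64 ± 0.88 (edgeR adjusted p = 1.0 each).

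Over the 36 genes, edgeR called 0 higher and 0 lower at germ band extension than at gastrula, with or without the block, as it did over all 11286 genes (0% in each direction). At an unadjusted p under 0.05, 0 were higher and 3 lower without the block, against 4.55% and 0.523% of all genes, and 0 and 8 with it, against 6.85% and 2.8%. Neither limma-voom (0% of all genes) nor DESeq2 (1.78% higher and 0.042% lower) called a member without a block. DESeq2 with the block called MDOA004461 lower and no other member, beside 3.25% of its genes higher and 0.268% lower. The median log2 fold change of the 36 was -0.726, and it was -0.12 without germ band extension replicate 2 and -1.07 without replicate 1.

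The 2 germ band extension libraries differed much for these genes. Replicate 1 was higher in 33 of the 36, with a median ratio of 2.45 and a highest one of 23.8, and in 14 genes it was 4-fold or more above replicate 2. The rule bears on this gap, since 7 members met the share limit through replicate 1 alone. Among the 29 that met it in both libraries (a set chosen after seeing the data), replicate 1 was higher in 26, with a median ratio of 2.0, and 4-fold or more above in 8. Among 5470 other genes at 10 CPM or more in both cellular blastoderm libraries, replicate 1 was higher in 67.4%, with a median ratio of 1.43, but these genes were not held to the share limit. At gastrula the pair lay closest, with 27 of the 36 genes less than 2-fold apart and a median ratio of 1.33. At cellular blastoderm replicate 1 was higher in 25 genes, with a median ratio of 1.78 against 1.02 among the other genes. The median ratio there was 1.83 in the 63 kept genes and 1.88 in the 5 pulse genes, so this gap was not particular to the 36. At dorsal closure replicate 1 was higher in 10 genes, and 4 genes had no read in either library. With values under 3 counts set to 3, the median ratio was 0.548, against 1.21 among the others. That median equals the ratio of 3 counts in replicate 1 to 3 in replicate 2 (0.037 and 0.0675 CPM). The median is thus set by depth and by itself shows no order of the 2 libraries. By CPM without that floor, replicate 1 was higher in 27.8% of the 36 genes, against 58.4% of the others. The others were not held to the dorsal closure limit, and the difference was not tested.

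**Figure D4:**
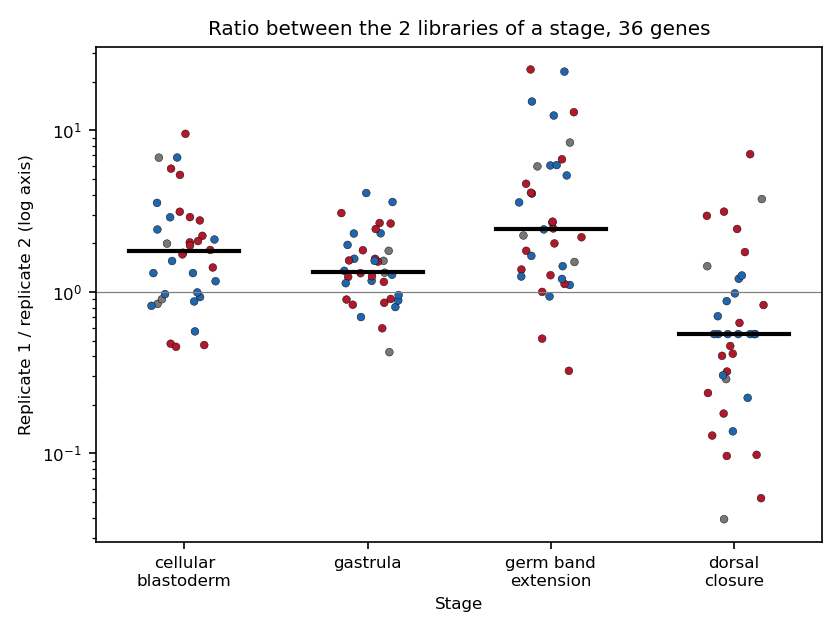
Replicate 1 divided by replicate 2 for each of the 36 genes at 4 stages, on a log axis, with values under 3 counts set to 3; bars are medians and colours are those of the courses (red, higher at gastrula in both series; blue, lower in both; grey, series differ). The medians are 1.78, 1.33, 2.45 and 0.548, and gastrula has the narrowest spread. The dorsal closure median equals the ratio of 3 counts in replicate 1 to 3 in replicate 2.

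The step from gastrula to germ band extension accordingly differed between the series. The median ratio of germ band extension to gastrula was 0.858 in series 1 and 0.404 in series 2, against 1.03 and 0.859 for the 5470 other genes. Over the 29 members above the share limit in both germ band extension libraries it was 0.949 and 0.587, so part of the gap between the series went with the 7 members that the rule kept through replicate 1 alone. From germ band extension to dorsal closure it was 0.019 and 0.0944, so the lower ratio was in series 2 for the earlier step and in series 1 for the later one. Over both steps the median ratio of dorsal closure to gastrula was 0.0222 and 0.0398.

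At dorsal closure 13 of the 36 genes were below 1 CPM in both libraries, another 13 were below 10 CPM in both, and 10 were below 10 CPM in 1 library alone. Values under 3 counts in both libraries were found for 6 genes, of which 4 had no read in either. The deepest reductions were ranked by the ratio of mean gastrula level to the higher dorsal closure value, with values under 3 counts set to 3. For genes with fewer reads than that the ratio is a lower bound, so the 6 genes under 3 counts in both libraries cannot be placed in the order. The first by this measure was MDOA006707. It stood at 78.8 and 37.3 CPM in cellular blastoderm, 45.7 and 33.8 CPM in gastrula, 24.8 and 2.01 CPM in germ band extension and 0.037 and 0.045 CPM, or 3 and 2 reads, in dorsal closure. With the 2 reads set to 3, its gastrula mean was at least 589 times the higher dorsal closure value.

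MDOA010623 followed by this measure, with a ratio of 345, while MDOA005374, with 1 and 0 reads, was at 310.3 or more. It had 0.798 and 0.965 CPM in syncytial blastoderm, 1022 and 459.5 CPM in cellular blastoderm, 2009 and 1605 CPM in gastrula, 2123 and 454.4 CPM in germ band extension, and 0.506 and 5.24 CPM in dorsal closure. It was the most abundant of the 36 genes in each library from cellular blastoderm to germ band extension replicate 1, while in germ band extension replicate 2 MDOA005617 was higher, at 540 CPM. Its log2 fold change from cellular blastoderm to gastrula was 1.45 ± 1.01 (SE, edgeR adjusted p = 0.68, and 0.45 with the block).

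**Figure D5:**
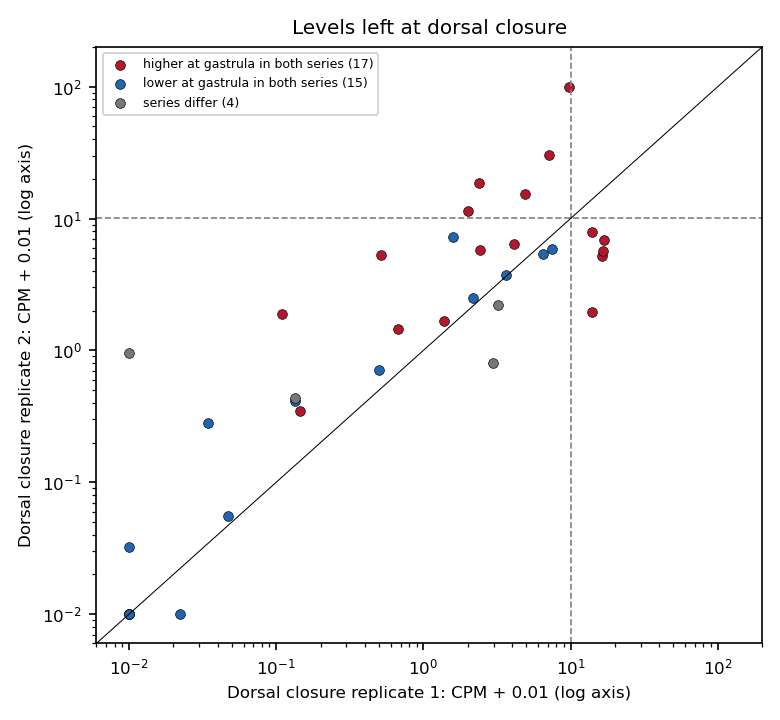
Level of each of the 36 genes in dorsal closure replicate 1 (across) and replicate 2 (up), as CPM + 0.01 on log axes, coloured by the direction from cellular blastoderm to gastrula; dashed lines mark 10 CPM and the diagonal marks equal levels. The 10 genes beyond a dashed line, 5 on each side, are all red, and no gene is beyond both, as the rule requires.

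The 10 genes with 1 dorsal closure library at 10 CPM or more split evenly, 5 by replicate 1 and 5 by replicate 2. In the 5 that were higher in replicate 1, that replicate was also the higher one at the 3 stages before, with median ratios of 2.77, 1.81 and 2.72 there, in order of stage, and 2.96 at dorsal closure. In the 5 that were higher in replicate 2, the earlier stages were mixed, with replicate 1 higher in 3 of 5 at each of those stages and a median ratio of 0.176 at dorsal closure. With values under 3 counts set to 3, the widest gap between the dorsal closure libraries was that of MDOA003138, with 0 and 0.945 CPM (0 and 42 reads), after 53.7 and 63.8 CPM in cellular blastoderm, 35.9 and 84.7 CPM in gastrula and 30.5 and 13.6 CPM in germ band extension. Next was MDOA002056, with 0.0987 and 1.87 CPM, after 55.2 and 118, 92.6 and 156, and 81.6 and 59.4 CPM. In both genes the dorsal closure levels were low in either library beside the stages before.

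MDOA009125, named after its values were seen, was the only one of the 36 genes that was not lower at dorsal closure than at germ band extension in both series. It stood at 21.8 and 14.1 CPM in cellular blastoderm, 15.5 and 7.91 CPM in gastrula, 12.5 and 4.64 CPM in germ band extension, and 7.42 and 5.87 CPM in dorsal closure. The choice of members partly fixes that the others were lower.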

How the data were processed

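The authors deposited a file of raw read counts by gene for each library; per the submitters' processing notes STAR and HTSeq were used, with no versions. The build, annotation and strand setting were not stated there, so their effect on the counts cannot be checked. Reads that fitted more than 1 gene (0.353% to 0.661% of all reads) or more than 1 place were counted for no gene. Genes that overlap or have near-identical copies may thus be undercounted. Per the labels' protocols, pairs of 100 bp were read from inserts of 200 bp. The 5 rows that name no gene were left out; of all reads, 10.5% to 25.0% were assigned to no gene and 5.31% to 10.7% aligned to more than 1 place.

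CPM was computed on summed gene counts. Tests used edgeR 4.0.16 in R 4.3.3: filterByExpr by stage (11286 genes, all 36 members among them), TMM scaling, and a robust quasi-likelihood fit with 1 coefficient per stage over all 10 libraries, with Benjamini-Hochberg adjustment over all genes tested and calls at 0.05. Alternatives were DESeq2 1.42.0, limma 3.58.1 (voom), other scalings and filters, a replicate block and leaving out each library. Standard errors come from the unshrunken fold change over the root of its F statistic. The fit was first run on simulated counts that held no difference between replicate numbers. That run therefore cannot show how the fit copes with the pairing of replicates in these data. The replicate numbers come from the labels, which do not tie them to a batch. Differences between replicates correlated across genes in all 10 pairs of stages (r from 0.321 to 0.608, above 0.1). Results with the replicate block are therefore given beside those of the main fit, which does not use this pairing. Genes named by size of change were ranked in the fit without the block.

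The members and the gene groups were chosen with earlier results of these data known. Named genes were the 2 largest changes each way per comparison with both series agreeing in direction, the 2 highest at cellular blastoderm, the 2 deepest reductions, the 2 widest dorsal closure gaps and the genes next to each limit; others are said to be chosen after their values were seen. MDOA identifiers could not be paired with names, so no gene list was counted and no sequence is shown.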

Additional observations from a re-analysis of the deposited data

How the results depend on the processing

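For gastrula against cellular blastoderm, 0 members were called in either direction under the other scalings and filters, limma-voom and each library left out in edgeR without the block. DESeq2 called 2 higher; with the replicate block, edgeR called 2 higher and 1 lower, DESeq2 5 and 1, edgeR on total counts 1 and 1 (3.55% and 3.83% of all genes), and edgeR on DESeq2's size factors (chosen after seeing the data) 2 and 0 (3.93% and 2.45%). With the block and 1 library left out, 0 to 6 were called higher and 0 to 2 lower, beside 0.771% to 4.81% and 0.116% to 4.89% of all genes; the cause was not tested. For germ band extension against gastrula DESeq2 with the block called 1 lower, beside 3.25% of its genes higher and 0.268% lower. No other alternative called a member. Of these, DESeq2 without the block called 1.78% of its genes higher and 0.042% lower. The edgeR and limma-voom fits of all 10 libraries called no gene, while some fits with 1 library left out called other genes. The rule found 42 genes on TMM-scaled CPM and 37 on DESeq2's size factors, of which 36 and 31 were shared with the main 36. Leaving out 1 library gave 29 to 67 genes, the most without cellular blastoderm replicate 2. With libraries judged by overlap instead of by series (chosen after seeing the data), 10 genes were higher at gastrula than at cellular blastoderm, against 17, and 12 lower at germ band extension than at gastrula, against 24. The fold changes recomputed under the alternatives, 1 for each of the 8 genes named by size of change and for MDOA013940, kept their direction. On total counts the median log2 fold change of the 36 to gastrula was -0.0601, against 0.126, so that median has no stable sign. Depth limits the dorsal closure and syncytial levels, where 3 counts are 0.037 to 0.184 CPM.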
